A study of Sorghum bicolor and Setaria italica and Zea mays with 20 samples.

Results

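The bundle-sheath chromatin of 3 C4 grasses, *Z. mays*, *S. italica* and *S. bicolor*, was described from the DNaseI-hypersensitive sites (DHSs) and digital genomic footprints (DGFs, called footprints below) that the authors listed for it. The bundle sheath accounts for 6 of the 20 samples of the series, 2 per species, and all intervals on numbered chromosomes were taken. These were 48547 of 48888 DHSs for *Z. mays* (10 chromosomes), 38989 of 39219 for *S. italica* (9 chromosomes) and 33695 of 34365 for *S. bicolor* (10 chromosomes). They carried 164252 footprints for *Z. mays*, 157799 for *S. italica* and 126001 for *S. bicolor*, and all 448052 midpoints lay inside a listed DHS. With all other sequences included, the lists held 452263 footprints and 122472 DHSs. After correction for DNaseI cutting bias, the study reports far fewer bundle-sheath footprints than these lists hold, and somewhat more DHSs. Whether the listed footprints had passed that correction was not tested, and all footprint values below refer to the listed ones.

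The study mapped accessible DNA in grass leaves to ask how transcription factor binding is arranged around genes of C4 photosynthesis. Leaves of all 3 species were taken from plants aged 18 d, 4 to 6 h after the lights came on. The sample labels give the third leaf in *Z. mays* and *S. bicolor*, and the third and the fourth leaf in *S. italica*, whereas the study's methods name both leaves for all 3 species. Bundle-sheath strands were separated mechanically from pooled leaves of many plants before nuclei were digested with DNaseI.

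In C4 leaves, mesophyll cells capture carbon into C4 acids, and bundle-sheath cells, which surround the veins, release it again around Rubisco. Nucleosome-depleted DNA at promoters and enhancers is cut readily by DNaseI and appears as a DHS. A protein bound inside such a site shields a short stretch from the enzyme, and the Wellington algorithm searches for that stretch as a footprint.

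Each species is represented by 1 DHS list and 1 footprint list. The listed DHSs are named as peaks of pooled reads and were kept by their reproducibility between replicates, and footprints were called on the pooled reads. No value below has a replicate error, and no test between species was possible. The spread given is the range over chromosomes, which are not replicates, and the 95% Wilson intervals of shares cover counting error only, over neighbouring intervals that are not independent. The lists carry no read numbers, so no value could be related to depth, but the study describes shallower sequencing of *Z. mays* and footprint calls that had not reached saturation there. Species, genome assembly, library and calling threshold differ together between lists and cannot be told apart. The lists hold no expression values, so the bundle-sheath label could not be checked against marker genes. The lowest fold enrichment of a listed DHS was 6.14 for *Z. mays*, 2.57 for *S. italica* and 3.23 for *S. bicolor*, and the median was 8.03 for *Z. mays*, 3.12 for *S. italica* and 4.02 for *S. bicolor*.

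DHSs of *Z. mays* bundle sheath lay much farther apart than those of the other species. The median gap from the end of a DHS to the start of the next was 24.3 kb for *Z. mays*, 3.57 kb for *S. italica* and 4.87 kb for *S. bicolor*. The *Z. mays* median was 6.81 times that of *S. italica* and 5.0 times that of *S. bicolor*. Medians of single chromosomes ran from 23.0 to 25.9 kb for *Z. mays*, from 3.18 to 4.06 kb for *S. italica* and from 3.80 to 5.44 kb for *S. bicolor*. All *Z. mays* chromosomes were therefore above all others, while the ranges of *S. italica* and *S. bicolor* overlapped. The study removed reads of low mapping quality and proposes that repetitive DNA may have limited unique mapping in *Z. mays*. The part of such sequence in these gaps was not tested.

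The spans up to the last DHS of each chromosome summed to 2059 Mb for *Z. mays*, 401 Mb for *S. italica* and 658 Mb for *S. bicolor*. The number of DHSs per Mb of span was 23.6 for *Z. mays* (22.5 to 25 over chromosomes), 97.2 for *S. italica* (88.9 to 105) and 51.2 for *S. bicolor* (42.3 to 63.3). DHSs covered 5.0% of the span for *Z. mays*, 15.0% for *S. italica* and 8.96% for *S. bicolor*. The summed DHS length was 103 Mb for *Z. mays*, 60.0 Mb for *S. italica* and 59.0 Mb for *S. bicolor*. The span of *Z. mays* was 5.13 times that of *S. italica*, whereas its summed DHS length was 1.71 times as long.

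**Figure D1:**
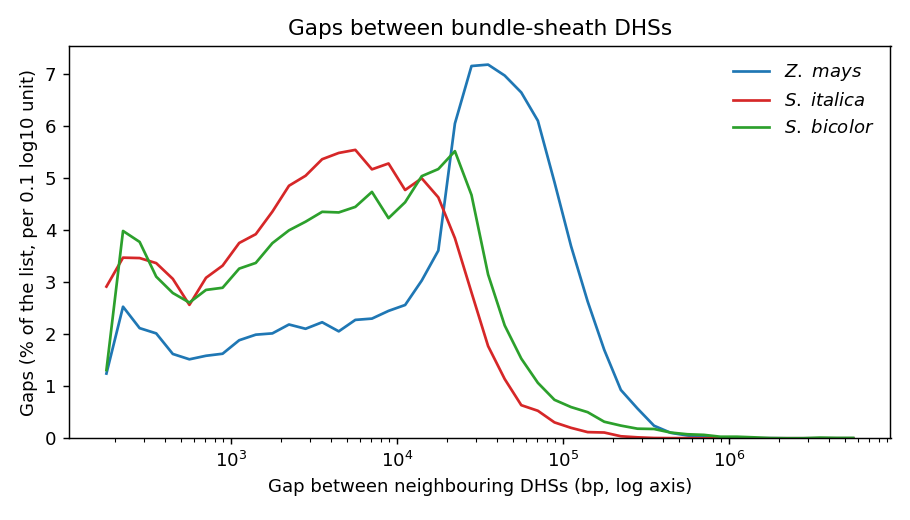
Distribution of gaps between neighbouring bundle-sheath DHSs on a log axis in bp, as a percentage of each list per 0.1 log10 unit; 1 line per species. The *Z. mays* line peaks at 7.19% of gaps near 32 to 40 kb, whereas *S. italica* peaks at 5.55% near 5 to 6.3 kb.

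The shape of the gap distribution also differed. The fullest class of 0.1 log10 units ran from 31.6 to 39.8 kb for *Z. mays*, from 5.01 to 6.31 kb for *S. italica* and from 20 to 25.1 kb for *S. bicolor*. Gaps of 10 to 100 kb made up 54.3% of the list for *Z. mays* (95% interval 53.8 to 54.7), 25.4% for *S. italica* (25 to 25.9) and 33.6% for *S. bicolor* (33.1 to 34.1). Gaps over 50 kb made up 27.7% for *Z. mays*, 1.97% for *S. italica* and 5.74% for *S. bicolor*. They held 71.8% of the summed gap length for *Z. mays*, 20.2% for *S. italica* and 51.9% for *S. bicolor*. The class from 200 to 251 bp formed a smaller peak, with 2.53% of gaps for *Z. mays*, 3.47% for *S. italica* and 3.99% for *S. bicolor*. It lay at the lower limit of the lists, whose shortest gap was 180 bp for *Z. mays*, 165 bp for *S. italica* and 186 bp for *S. bicolor*. In *S. italica* the peak was slight, with 3.474% against 3.466% in the next class.

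The longest tail belonged to *S. bicolor*. The coefficient of variation of the gaps was 1.38 for *Z. mays*, 1.84 for *S. italica* and 4.83 for *S. bicolor*, and 5 gaps of *Z. mays*, 0 of *S. italica* and 25 of *S. bicolor* exceeded 1 Mb. The widest gap of *Z. mays* measured 1627 kb (chromosome 8, 29996904 to 31623476, assembly AGPv3). That of *S. italica* measured 564 kb (chromosome 3, 41593806 to 42158051, v2), and that of *S. bicolor* 5626 kb (chromosome 1, 33066977 to 38693169, v2.0).

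Closely spaced DHSs were present in every list. Gaps under 1 kb made up 14.3% for *Z. mays* (14.0 to 14.6), 25.3% for *S. italica* (24.8 to 25.7) and 23.3% for *S. bicolor* (22.9 to 23.8). When DHSs less than 2 kb apart were joined into runs, 10.0% of *Z. mays* DHSs fell in runs of 3 or more (9.17 to 11% over chromosomes), 33.0% of *S. italica* DHSs (29.0 to 37.2%) and 28.7% of *S. bicolor* DHSs (24.8 to 35.6%). DHSs with no neighbour within 2 kb made up 63.4% for *Z. mays*, 40.4% for *S. italica* and 45.4% for *S. bicolor*. The longest run held 6 DHSs for *Z. mays* (chromosome 4, 17109422 to 17119743), 12 for *S. italica* (chromosome 8, 6470977 to 6489520) and 10 for *S. bicolor* (chromosome 2, 6685377 to 6702867). The 100-kb window with the most DHSs held 11 for *Z. mays* (chromosome 2 from 177200001), 26 for *S. italica* (chromosome 3 from 48500001) and 20 for *S. bicolor* (chromosome 5 from 5000001).

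Gaps in the middle 20% and in the outer 40% of chromosomes were compared. The middle held 8038 DHSs for *Z. mays*, 6205 for *S. italica* and 1653 for *S. bicolor*. The outer part held 22056 for *Z. mays*, 17069 for *S. italica* and 19730 for *S. bicolor*. In *Z. mays*, DHSs of the middle 20% of a chromosome followed a median gap of 27.7 kb, and those of the outer 40% a median gap of 22.8 kb. The middle value was the larger on 10 of 10 *Z. mays* chromosomes. In *S. italica* the median gap was 3.47 kb in the middle and 3.90 kb in the outer part, and the middle value was the larger on 3 of 9 chromosomes. In *S. bicolor* the medians were 5.60 kb in the middle and 5.39 kb in the outer part, with the middle value the larger on 7 of 10 chromosomes. Gaps over 50 kb were more frequent in the middle in every list. They made up 33.1% in the middle and 24.5% in the outer part for *Z. mays*. The shares were 4.75% and 0.903% for *S. italica*, and 23.5% and 2.72% for *S. bicolor*.

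DHSs were wider in *Z. mays*. The median width was 1690 bp for *Z. mays*, 1233 bp for *S. italica* and 1341 bp for *S. bicolor*. Chromosome medians ran from 1585 to 1804 bp for *Z. mays*, from 1047 to 1311 bp for *S. italica* and from 1192 to 1440 bp for *S. bicolor*. The *Z. mays* chromosomes did not overlap the others, and the *S. italica* and *S. bicolor* chromosomes overlapped. DHSs over 3000 bp made up 22.2% for *Z. mays* (21.9 to 22.6), 10.1% for *S. italica* (9.85 to 10.4) and 14.6% for *S. bicolor* (14.2 to 15.0). DHSs under 500 bp made up 5.80% for *Z. mays*, 12.3% for *S. italica* and 11.4% for *S. bicolor*.

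**Figure D2:**
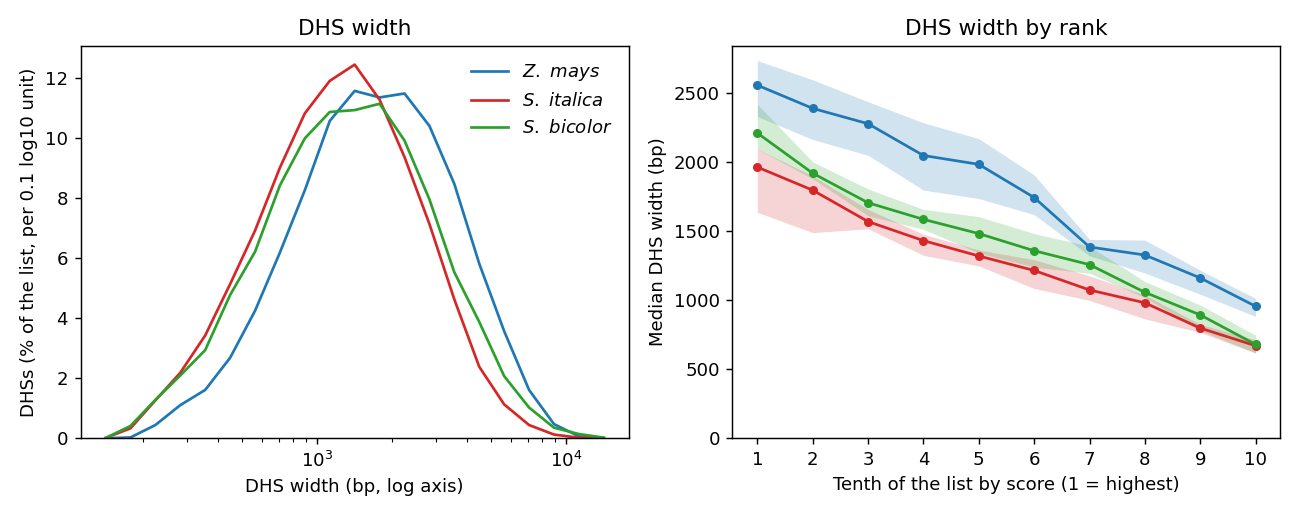
Left, distribution of DHS width on a log axis in bp, as a percentage of each list per 0.1 log10 unit. Right, median width in bp in each of 10 rank classes by score, with bands for the range over chromosomes; the medians fall to 955 bp for *Z. mays*, 670 bp for *S. italica* and 679 bp for *S. bicolor* in the lowest class.

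Width followed the rank of a DHS in every species. When each list was cut into 10 rank classes of equal size by the score of the peak caller, the highest class had a median width of 2555 bp for *Z. mays*, 1962 bp for *S. italica* and 2209 bp for *S. bicolor*. The lowest class had 955 bp for *Z. mays*, 670 bp for *S. italica* and 679 bp for *S. bicolor*. The highest class was 2.68 times as wide as the lowest for *Z. mays*, 2.93 times for *S. italica* and 3.25 times for *S. bicolor*. Within each rank class the *Z. mays* median was the largest. The middle of the chromosomes held narrower DHSs, with medians of 1426 bp against 1846 bp in the outer part of *Z. mays*, 1130 bp against 1263 bp for *S. italica* and 1081 bp against 1390 bp for *S. bicolor*. The middle value was the smaller on 10 of 10 chromosomes for *Z. mays*, 7 of 9 for *S. italica* and 10 of 10 for *S. bicolor*.

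The widest DHS measured 12692 bp for *Z. mays* (chromosome 6, 110871244 to 110883935), 12025 bp for *S. italica* (chromosome 3, 47915723 to 47927747) and 14825 bp for *S. bicolor* (chromosome 3, 48309499 to 48324323). They held 21 footprints for *Z. mays* and 22 each for *S. italica* and *S. bicolor*. These wide sites were not the highest scoring ones. The highest score was 1773 in a DHS of 643 bp for *Z. mays* (chromosome 1, 24792540 to 24793182), 984 in a DHS of 4818 bp for *S. italica* (chromosome 6, 14225263 to 14230080) and 3307 in a DHS of 1325 bp for *S. bicolor* (chromosome 3, 18261774 to 18263098). Those DHSs held 2 footprints for *Z. mays*, 19 for *S. italica* and 5 for *S. bicolor*.

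Summits, the positions of highest signal, lay off centre by a similar share of the width in all 3 species. The median distance of the summit from the DHS centre was 18.1% of the width for *Z. mays* (17.7 to 18.4 over chromosomes), 17.9% for *S. italica* (17.6 to 18.1) and 19.0% for *S. bicolor* (18.2 to 19.8). The range of *Z. mays* overlapped both others, while that of *S. bicolor* lay above that of *S. italica*. The offset grew with width. In DHSs under 500 bp it was 9.57% for *Z. mays*, 10.9% for *S. italica* and 10.9% for *S. bicolor*, and in DHSs of 4000 bp or more it was 25.2% for *Z. mays*, 25% for *S. italica* and 29.4% for *S. bicolor*.

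Few DHSs had their summit near an end. The first and last 10% of the width held 4.63% of summits for *Z. mays* (4.45 to 4.82), 4.16% for *S. italica* (3.96 to 4.36) and 5.97% for *S. bicolor* (5.72 to 6.23). That share depended on width and was 0% in each list for DHSs under 500 bp. In DHSs of 4000 bp or more it was 14.6% for *Z. mays*, 16.3% for *S. italica* and 24.2% for *S. bicolor*. The summit lay on the lower-coordinate side of the centre in 50.0% of DHSs for *Z. mays*, 50.6% for *S. italica* and 51.3% for *S. bicolor*.

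Listed footprints were denser near the summit in all species. Summits and footprints were called from the same reads, so the 2 are not independent. The part of read number in this density was not tested. Within 200 bp of the summit there were 3.10 footprints per kb of DHS for *Z. mays*, 4.26 for *S. italica* and 3.67 for *S. bicolor*. At 200 to 500 bp there were 1.71 for *Z. mays*, 2.45 for *S. italica* and 2.16 for *S. bicolor*. The ratio of the near to the far density was 1.81 for *Z. mays* (1.78 to 1.84 over chromosomes), 1.74 for *S. italica* (1.71 to 1.77) and 1.70 for *S. bicolor* (1.61 to 1.80). The ranges of *Z. mays* and *S. italica* did not overlap, and that of *S. bicolor* overlapped both. When distance was measured from the centre of the DHS, an alternative chosen after seeing the data, the ratio was 1.14 for *Z. mays*, 1.2 for *S. italica* and 1.23 for *S. bicolor*.

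**Figure D3:**
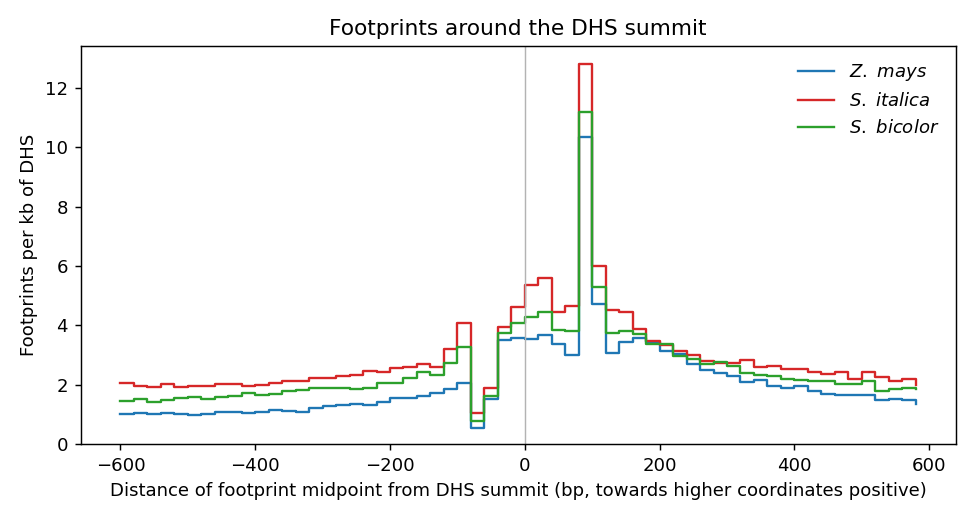
Footprints per kb of DHS in bins of 20 bp by the distance of the footprint midpoint from the summit, with higher coordinates to the right; 1 line per species. All lines peak 80 to 100 bp to the right of the summit, at 10.3 for *Z. mays*, 12.8 for *S. italica* and 11.2 for *S. bicolor*, and are lowest 60 to 80 bp to its left.

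The profile around the summit was not symmetrical, and its shape was shared by the 3 lists. Density was highest at 80 to 100 bp on the higher-coordinate side, with 10.3 footprints per kb for *Z. mays* (9.34 to 10.9 over chromosomes), 12.8 for *S. italica* (12.2 to 13.1) and 11.2 for *S. bicolor* (10.6 to 12.3). The neighbouring bin at 60 to 80 bp had 3.02 for *Z. mays*, 4.65 for *S. italica* and 3.80 for *S. bicolor*. At 60 to 80 bp on the lower-coordinate side density was 0.547 for *Z. mays*, 1.04 for *S. italica* and 0.792 for *S. bicolor*. A footprint in the bin of highest density was present in 20.7% of DHSs for *Z. mays* (20.3 to 21.0), 25.4% for *S. italica* (25 to 25.9) and 22.2% for *S. bicolor* (21.8 to 22.7).

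The higher-coordinate side of the summit held 63.3% of footprints for *Z. mays* (62.0 to 64.1 over chromosomes), 58.7% for *S. italica* (58.3 to 59.7) and 59.8% for *S. bicolor* (58.2 to 61.2). Lower and higher coordinates are directions of the assembly and not of genes, and the shared side was a property of the listed positions whose cause was not tested. The *Z. mays* range lay above those of both other species. Within 500 bp, the higher-coordinate side had 2.05 times the density of the lower one for *Z. mays*, 1.62 times for *S. italica* and 1.67 times for *S. bicolor*.

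The same side difference was seen at the ends of DHSs. In DHSs of 1000 bp or more, the first 100 bp from the lower-coordinate edge held 0.00847 footprints per kb for *Z. mays*, 0.354 for *S. italica* and 0.213 for *S. bicolor*. The first 100 bp from the higher-coordinate edge held 0.744 for *Z. mays*, 1.24 for *S. italica* and 1.08 for *S. bicolor*. From the lower-coordinate edge, density first reached 50% of its level at 300 to 500 bp in the bin centred on 237.5 bp in *Z. mays* and on 112.5 bp in both *S. italica* and *S. bicolor*. From the higher-coordinate edge it did so in the bin centred on 62.5 bp in all 3 lists.

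Neighbouring footprints of one DHS lay a median of 180 bp apart for *Z. mays* (177 to 183 over chromosomes), 173 bp for *S. italica* (171 to 178) and 196 bp for *S. bicolor* (192 to 198), measured between midpoints. The range of *S. bicolor* lay above both others, and those of *Z. mays* and *S. italica* overlapped. The shortest spacing was 16 bp in each list, and the fullest bin of 4 bp was that from 56 to 60 bp, with 2.14% of spacings for *Z. mays*, 2.1% for *S. italica* and 1.83% for *S. bicolor*. Spacings under 50 bp made up 3.51% for *Z. mays* (3.41 to 3.61), 4.88% for *S. italica* (4.76 to 5.0) and 3.40% for *S. bicolor* (3.28 to 3.51). Spacings of 40 to 50 bp made up 1.95% for *Z. mays*, 2.44% for *S. italica* and 1.77% for *S. bicolor*, and those of 50 to 60 bp made up 4.35% for *Z. mays*, 4.62% for *S. italica* and 3.98% for *S. bicolor*.

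**Figure D4:**
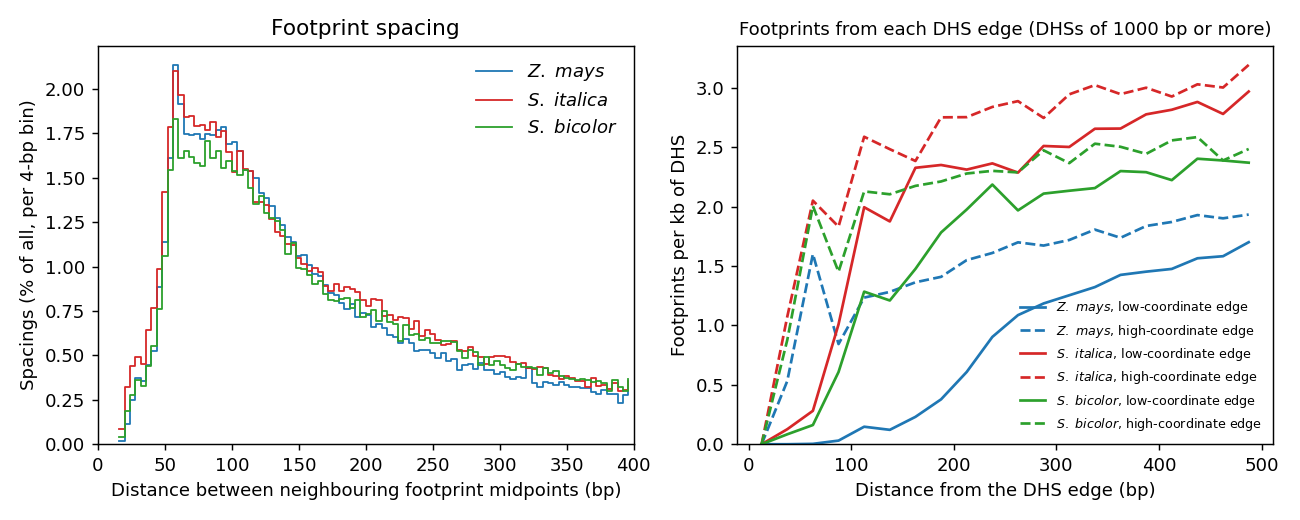
Left, distribution of the distance between neighbouring footprint midpoints in bp, as a percentage of all spacings per 4-bp bin; all lines peak at 56 to 60 bp. Right, footprints per kb by distance from the lower-coordinate edge (solid) and the higher-coordinate edge (dashed) of DHSs of 1000 bp or more, where the solid *Z. mays* line rises last.

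The order of the species depended on which DHSs were compared. In DHSs of 1000 to 2000 bp that held exactly 4 footprints, the median spacing was 144 bp for *Z. mays* (134 to 153 over chromosomes), 176 bp for *S. italica* (161 to 185) and 170 bp for *S. bicolor* (161 to 185). With exactly 2 footprints it was 210 bp for *Z. mays*, 266 bp for *S. italica* and 265 bp for *S. bicolor*. With exactly 6 it was 125 bp for *Z. mays*, 146 bp for *S. italica* and 145 bp for *S. bicolor*. At each of these counts *Z. mays* had the lowest median, and its chromosome range lay below both others at 2 and 4 footprints, whereas at 6 its range (114 to 133 bp) overlapped that of *S. bicolor* (130 to 170 bp). Its DHSs with 4 footprints were wider, with a median of 1548 bp against 1409 bp for *S. italica* and 1495 bp for *S. bicolor*. The part of the empty lower-coordinate edge in this difference was not tested.

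Footprints were sparser in *Z. mays* DHSs of equal width and rank. DHSs were sorted into 10 width classes, with limits taken from the 3 lists together, and 10 rank classes, and the footprints per kb of the resulting 100 cells were averaged with equal weight. The smallest cell held 37 DHSs for *Z. mays*, 22 for *S. italica* and 25 for *S. bicolor*. The mean was 1.52 footprints per kb for *Z. mays* (1.49 to 1.57 over chromosomes), 2.69 for *S. italica* (2.60 to 2.75) and 2.23 for *S. bicolor* (2.19 to 2.26). These ranges did not overlap. *Z. mays* was below *S. italica* in 100 of 100 cells and below *S. bicolor* in 97, and *S. italica* was above *S. bicolor* in 99. Without matching, density over all DHSs was 1.60 for *Z. mays*, 2.63 for *S. italica* and 2.14 for *S. bicolor*. Among DHSs that held any footprint it was 1.95 for *Z. mays*, 2.68 for *S. italica* and 2.19 for *S. bicolor*.

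**Figure D5:**
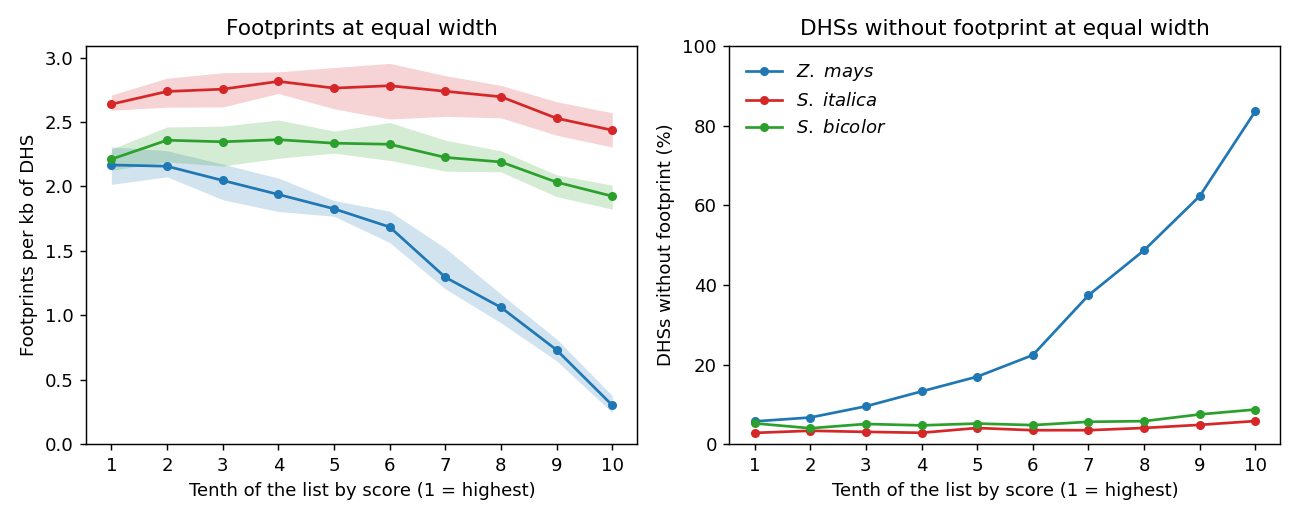
Footprints per kb of DHS (left, bands for the range over chromosomes) and percentage of DHSs without footprint (right) in 10 rank classes by score, averaged over the same 10 width classes in each species. *Z. mays* falls to 0.303 per kb and rises to 83.7% without footprint in the lowest class, while *S. italica* and *S. bicolor* stay at or above 1.92 per kb.

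The difference of *Z. mays* grew down the ranking. In the highest rank class at equal width, density was 2.17 for *Z. mays* (2.02 to 2.31 over chromosomes), 2.64 for *S. italica* (2.59 to 2.71) and 2.21 for *S. bicolor* (2.13 to 2.29), so that the ranges of *Z. mays* and *S. bicolor* overlapped. In the lowest class it was 0.303 for *Z. mays* (0.246 to 0.377), 2.44 for *S. italica* (2.31 to 2.57) and 1.92 for *S. bicolor* (1.82 to 2.01). At equal width and rank, 30.7% of DHSs had no footprint for *Z. mays*, 3.81% for *S. italica* and 5.67% for *S. bicolor*. With equal numbers of footprints, described below, the order of *S. italica* and *S. bicolor* turned, with 37.2% for *Z. mays*, 12.0% for *S. italica* and 5.67% for *S. bicolor*, and with footprints of -10 or lower it was 81.4% for *Z. mays*, 4.55% for *S. italica* and 12.8% for *S. bicolor*. Over all footprints, the shares in the lowest rank class were 83.7% for *Z. mays*, 5.82% for *S. italica* and 8.72% for *S. bicolor*.

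Other properties of the footprint lists moved with this difference. The median Wellington score was -7.54 for *Z. mays*, -14.7 for *S. italica* and -13.1 for *S. bicolor*, and the weakest listed footprint had -5.02 for *Z. mays*, -6.56 for *S. italica* and -5.20 for *S. bicolor*. A score of -10 or lower was held by 9.91% of footprints for *Z. mays*, 98.4% for *S. italica* and 88.4% for *S. bicolor*. With footprints of -10 or lower only, a threshold chosen after seeing the data, density at equal width and rank was 0.162 per kb for *Z. mays*, 2.62 for *S. italica* and 1.87 for *S. bicolor*. The names of the footprints carry running numbers, and the lists held 90.7% of the numbers they span for *Z. mays*, 32.4% for *S. italica* and 36.2% for *S. bicolor*. With equal numbers of footprints, 126001 of the strongest in each list, density was 1.14 for *Z. mays*, 2.03 for *S. italica* and 2.23 for *S. bicolor*, so that *S. bicolor* came above *S. italica*. At a fixed number, density before matching follows from summed DHS length, which was 103 Mb for *Z. mays*, 60.0 Mb for *S. italica* and 59.0 Mb for *S. bicolor*. The order under this setting was therefore largely set in advance. The part of sequencing depth, list length and score threshold in these densities was not tested.

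Wide DHSs without any footprint were found in *Z. mays*. In the widest of the 10 width classes, from 3672 bp up, 491 of 6907 DHSs had none in *Z. mays*, or 7.11% (6.53 to 7.74). The counts were 0 of 2118 for *S. italica* and 0 of 3100 for *S. bicolor*, which allow shares of up to 0.142% for *S. italica* and 0.0968% for *S. bicolor* from 3 counts, with Wilson upper limits of 0.181% for *S. italica* and 0.124% for *S. bicolor*. The widest DHS without a footprint measured 9178 bp for *Z. mays* (chromosome 4, 208846781 to 208855958), 2203 bp for *S. italica* (chromosome 1, 12374066 to 12376268) and 2945 bp for *S. bicolor* (chromosome 4, 53388681 to 53391625). Its score was 107 for *Z. mays*, 98 for *S. italica* and 274 for *S. bicolor*.

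The DHS with the most footprints held 28 for *Z. mays* (chromosome 3, 172483466 to 172492496), 31 for *S. italica* (chromosome 3, 34833879 to 34844405) and 33 for *S. bicolor* (chromosome 2, 50698144 to 50711515). Among DHSs of at least 500 bp with at least 5 footprints, the densest had 8.10 footprints per kb for *Z. mays* (chromosome 6, 134591092 to 134591708), 10.0 for *S. italica* (chromosome 2, 32180100 to 32180796) and 9.76 for *S. bicolor* (chromosome 3, 10729957 to 10730571). In *Z. mays*, the footprint with the most negative Wellington score, -82.1, lay in the DHS with the highest score (chromosome 1, 24793034 to 24793058). In the other lists the lowest value was -1000, shared by 2 footprints of 1 DHS in *S. italica* and by 10 footprints of 4 DHSs in *S. bicolor*. The first of them by position lay at 7806449 to 7806465 on chromosome 6 of *S. italica* and at 18261987 to 18262007 on chromosome 3 of *S. bicolor*. The DHS with the highest score held 0 of the 2 in *S. italica* and 4 of the 10 in *S. bicolor*.

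Footprints were also shorter in *S. italica*. Lengths ran from 11 to 25 bp in odd numbers, and the mean was 22.9 bp for *Z. mays*, 20.9 bp for *S. italica* and 22 bp for *S. bicolor*. The longest length, 25 bp, was held by 56.8% of footprints for *Z. mays*, 37.9% for *S. italica* and 46.6% for *S. bicolor*. Within 100 bp of the summit this share was 49.4% for *Z. mays*, 35.7% for *S. italica* and 41.8% for *S. bicolor*, and at 800 to 1600 bp it was 63.3% for *Z. mays*, 40.5% for *S. italica* and 51.3% for *S. bicolor*. Longer footprints were thus more frequent away from the summit in each list.

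The most isolated DHSs were narrower in all 3 lists, but width did not fall steadily with isolation in *Z. mays*. In *Z. mays*, DHSs whose nearest neighbour was 50 kb or more away had a median width of 1536 bp, against 1750 bp at 10 to 50 kb, 1667 bp at 1 to 10 kb and 1695 bp for those with a neighbour under 1 kb. At 50 kb or more and under 1 kb, the widths were 775 bp and 1266 bp in *S. italica*, with 68 DHSs in the isolated class, and 765 bp and 1350 bp in *S. bicolor*. Chromosome medians of these classes overlapped in *Z. mays* and *S. italica* and did not overlap in *S. bicolor*, where they ran from 622 to 1157 bp and from 1196 to 1453 bp. Relative to the mean of the same list at equal width and rank, DHSs at 50 kb or more had 0.945 times the footprints for *Z. mays*, 0.957 times for *S. italica* and 0.971 times for *S. bicolor*. At 10 to 50 kb the ratio was 0.979 for *Z. mays*, but 1.02 for *S. italica* and 1.03 for *S. bicolor*. No spread was computed for these ratios.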

How the data were processed

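DNaseI-seq lists of bundle sheath were used, with 2 replicates per species and 1 list of each kind. According to the methods, reads were mapped with bowtie2 to Zmays AGPv3, Sitalica v2 and Sbicolor v2.0, filtered with SAMtools, and peaks from MACS2 were kept by their irreproducible discovery rate between replicates. Versions are not given in the submitters' processing notes, which list Bowtie2, MACS2 and SAMtools. Each deposited DHS has a score, a fold enrichment (ratio) and a −log10 p-value from the authors' peak caller. The score set the rank here, with ties ordered by the −log10 p-value, and fold enrichment was used only in an alternative ranking. Each deposited footprint has the authors' Wellington score (more negative is stronger). Whole-leaf lists, enriched footprint lists and the *S. bicolor* gene table, which is of another assembly, were not used here.

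Gaps, widths, summit offsets, footprint spacing and densities were computed with Python 3.11.15, NumPy 2.4.6, pandas 2.3.3, SciPy 1.17.1 and matplotlib 3.10.9, and tested on simulated data. Positions count from 1. A footprint belonged to the DHS holding its midpoint. Cells needed at least 20 DHSs in every species. Named regions were the extremes of each list (width, footprints, density in DHSs of 500 bp or more, score, gap, 100-kb window, Wellington score). The measures and lists were chosen with earlier results of these data known. Alternatives covered rank, width, list length, footprint strength and the distance used.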

Additional observations from a re-analysis of the deposited data

How the results depend on the processing

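Of 75 values under alternatives, 5 of *S. bicolor* were unchanged by construction, since its lists set the equal lengths. Of the other 70, 16 moved by less than the standard deviation over chromosomes (for shares, the 95% interval) and 54 by more. The 16 include the densities with only footprints wholly inside a DHS counted. That setting changed nothing, with 1.52 for *Z. mays*, 2.69 for *S. italica* and 2.23 for *S. bicolor* as before, so it tested nothing. The order of the 3 species was kept in 17 of 25 settings, that setting among them. The order of gaps and widths was kept in all settings tried. At equal list length, however, median widths of *S. italica* (1333 bp) and *S. bicolor* (1341 bp) differed by less than their standard deviation over chromosomes. No paired analysis was possible because each species has 1 list for both replicates, and leaving out a replicate was not possible for the same reason. The lists carry no depth, which the study describes as lower for *Z. mays*. The cause of each movement was not tested.

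For gaps, summit-to-summit distance gave 26.6 kb for *Z. mays*, 5.35 for *S. italica* and 6.89 for *S. bicolor*, DHSs above the median score gave 51.8 kb for *Z. mays*, 9.13 for *S. italica* and 14.5 for *S. bicolor*, and equal list length (33695) gave 36.3 kb for *Z. mays* and 4.32 kb for *S. italica*. For width, DHSs above the median score gave 2242 bp for *Z. mays*, 1582 for *S. italica* and 1759 for *S. bicolor*. Equal list length gave 2036 bp for *Z. mays* and 1333 for *S. italica*, against an unchanged 1341 for *S. bicolor*. The summit offset in DHSs of 500 to 3000 bp was 17.8% for *Z. mays* and 18.7% for *S. italica*, so that their order turned, and above the median score it was 18.2% for *S. italica* and 19.9% for *S. bicolor*.

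Footprint spacing was 228 bp for *Z. mays*, 195 for *S. italica* and 213 for *S. bicolor* for footprints stronger than the median, and 151 for *Z. mays*, 165 for *S. italica* and 175 for *S. bicolor* in DHSs of 1000 to 2000 bp, and the order changed in both. Equal numbers of footprints gave 194 bp for *Z. mays* and 179 for *S. italica*. The near over far ratio was 2.11 for *Z. mays*, 1.79 for *S. italica* and 1.80 for *S. bicolor* in DHSs of 1000 to 2000 bp, 2.32 for *Z. mays*, 2.1 for *S. italica* and 2.08 for *S. bicolor* within 100 bp against 300 to 500 bp, and 1.14 for *Z. mays*, 1.2 for *S. italica* and 1.23 for *S. bicolor* from the DHS centre. Stronger footprints gave 1.86 for *Z. mays* and 1.87 for *S. italica*.

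Footprints per kb were 1.60 for *Z. mays*, 2.63 for *S. italica* and 2.14 for *S. bicolor* without matching, 0.162 for *Z. mays*, 2.62 for *S. italica* and 1.87 for *S. bicolor* at -10 or lower, and 1.14 for *Z. mays* and 2.03 for *S. italica* with equal numbers. The share without footprint was 28.6% for *Z. mays*, 5.12% for *S. italica* and 6.91% for *S. bicolor* without matching, 81.4% for *Z. mays*, 4.55% for *S. italica* and 12.8% for *S. bicolor* at -10 or lower, 37.2% for *Z. mays* and 12.0% for *S. italica* with equal numbers (*S. italica* then above *S. bicolor*), 30.0% for *Z. mays* with 20 width classes, and 5.94% for *S. bicolor* ranked by fold. The DHS centre and the score of -10 were chosen after seeing the data.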
